A study of Mus musculus with 12 samples.

Results

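Smooth muscle cells (SMCs) of the ascending aorta and aortic arch were compared between mice with and without deletion of both transforming growth factor-β (TGF-β) receptor genes in SMCs. The libraries were chosen by their segment label, which kept 6 of the 12 libraries of the series, 3 from Tgfbr1/2iSMCKO mice and 3 from GFPiSMC mice, each from the segment of an individual mouse. GFPiSMC mice carried Myh11-CreERT2, a Cre recombinase active in SMCs and activated by tamoxifen, with the mT/mG reporter, which switches a cell to GFP after recombination. Tgfbr1/2iSMCKO mice carried the same transgenes together with floxed alleles of *Tgfbr1* and *Tgfbr2*. The strain of both groups is labelled C57BL/6J, and the study bred its compound mutants onto B6 for over 6 generations. The Cre transgene is on the Y chromosome, so that all animals were male, and all were 12 weeks old. By the study's account of this profiling, tamoxifen was given for 5 days at 2 mg/d from 11 weeks of age, about a week before the cells were taken. The labels also name a schedule of 1 mg/d at 4 weeks. Viable GFP+ cells were sorted after digestion in the cold, between 11825 and 20000 per library, and their RNA was sequenced in bulk.

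The GFPiSMC mice had no floxed alleles, so mouse line and receptor loss cannot be told apart here. GFP marks recombination of the reporter in a cell and not that of the receptor genes. In bulk RNA, fewer cells that express a gene and less RNA per cell cannot be told apart either. TGF-β ligands are secreted bound to latent TGF-β–binding proteins and, once released, bring the type II receptor TGFBR2 and the type I receptor TGFBR1 together. The active complex phosphorylates SMAD2 and SMAD3, which enter the nucleus with SMAD4. In the aortic media this pathway is known for its control of extracellular matrix (ECM) and contractile genes, and SMCs make the elastic fibers and collagens that carry the load of the wall.

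Total counts ranged from 25007747 to 30078830 in the GFPiSMC and from 20467027 to 30354994 in the Tgfbr1/2iSMCKO libraries, and 31319 to 36117 genes had at least 1 count. The first principal component of the 500 most variable genes held 39.9% of their variance and separated the genotypes. Replicate 3 of Tgfbr1/2iSMCKO stood apart from the rest. Its correlation of log2 CPM (counts per 1e6 counts) with the other 5 libraries was 0.833 to 0.910, against 0.906 to 0.952 among those 5, and 2.39% of its counts came from mitochondrial genes against 3.47% to 4.23% in the others. Calls of named genes that depend on it are given with their values without it, while dependence on other libraries is described with the processing. No pair of libraries agreed within sampling noise, with a chi-square per degree of freedom of at least 38.4.

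Counts per gene showed no loss of the floxed genes. *Tgfbr1* (ENSMUSG00000007613.15; GRCm38 chromosome 4, 47353222 to 47414931), the type I receptor, was at 239, 297 and 244 CPM in GFPiSMC replicates 1 to 3 and at 202, 244 and 295 CPM in Tgfbr1/2iSMCKO replicates 1 to 3. Those values overlapped, and the log2 fold change of Tgfbr1/2iSMCKO over GFPiSMC, the direction used throughout, was −0.07 (SE 0.18, adjusted p = 0.91). *Tgfbr2* (ENSMUSG00000032440.13; GRCm38 chromosome 9, 116084293 to 116175360) was at 108, 129.5 and 103 CPM in GFPiSMC and at 96.9, 98.4 and 102 CPM in Tgfbr1/2iSMCKO SMCs. All 3 Tgfbr1/2iSMCKO libraries lay below all 3 GFPiSMC libraries, and the log2 ratio of the group levels was −0.20 (SE 0.15, adjusted p = 0.646). A count over the whole gene does not tell deleted exons from those that remain, and gives no measure of recombination.

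A gene was called where its adjusted p was under 0.05 and it differed by more than 2-fold. Loss of the receptors went with 157 called genes at lower and 82 at higher levels, of 19762 tested. These are 0.794% and 0.415% of the genes tested, 1.21% together. The median log2 fold change of the lower genes was −1.83 and that of the higher genes 2.12, while over all genes tested it was 0.02. Signed values in parentheses after a gene are log2 fold changes. More than 4-fold, 69 genes were lower and 43 higher. The libraries of the genotypes did not overlap in any of the 239 called genes, and over all genes tested, 10.3% had all Tgfbr1/2iSMCKO libraries below and 9.87% had all of them above the GFPiSMC libraries. Scaled by library size alone, without TMM factors, the split was 130 lower and 104 higher, and the median of all genes was 0.12. Without replicate 3 of Tgfbr1/2iSMCKO, 152 genes (0.715%) were lower and 75 (0.353%) higher, and 176 of the 239 were called again. Of the 239, 69 were called in each of the 6 fits that left out 1 library, 53 lower and 16 higher.

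**Figure D1:**
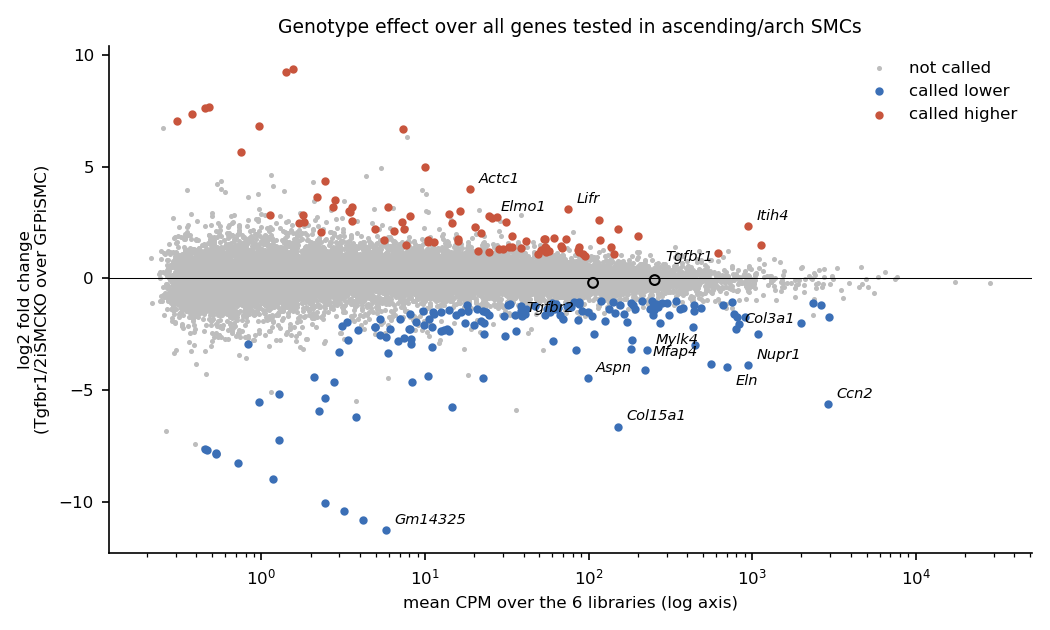
Log2 fold change of Tgfbr1/2iSMCKO over GFPiSMC SMCs against mean CPM over the 6 ascending/arch libraries (log axis) for the 19762 genes tested, with the 157 called lower in blue, the 82 called higher in red and the floxed genes ringed in black. Lower genes reach high levels, as for *Ccn2*, *Eln* and *Mfap4*, while *Tgfbr1* and *Tgfbr2* lie near 0.

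Among 13 TGF-β ligands and latent binding proteins, 1 was lower and 0 were higher, with a median log2 fold change of −0.26 (−0.44 without replicate 3 of Tgfbr1/2iSMCKO). *Ltbp3*, which tethers latent TGF-β to the matrix, fell from 181, 133 and 165 CPM to 44.5, 47.7 and 59.5 CPM (log2 fold change −1.66, SE 0.19, adjusted p = 0.00606). The ligand *Tgfb2* was at 316, 267 and 322 CPM in GFPiSMC and 147, 171 and 139 CPM in Tgfbr1/2iSMCKO SMCs, without overlap, and its log2 fold change of −0.99 (adjusted p = 0.0245) missed the 2-fold threshold. Of 19 receptors and Smads of the TGF-β superfamily, 0 were called, with 4 of them at an unadjusted p under 0.05, against 13.3% of all genes tested. The smallest p values were those of *Smad3*, the nuclear effector, at a log2 fold change of 0.98 (adjusted p = 0.122), and of *Acvr1*, a BMP and activin receptor, at −0.58 (adjusted p = 0.255).

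Of 17 feedback and target genes of the pathway, 3 were lower, 0 were higher, and the median log2 fold change was −1.10. *Ccn2* (ENSMUSG00000019997.11; GRCm38 chromosome 10, 24595442 to 24598683), the secreted matricellular protein connective tissue growth factor, was at 5485, 6298 and 5210.5 CPM in GFPiSMC and at 51.3, 207 and 83.4 CPM in Tgfbr1/2iSMCKO SMCs. The highest Tgfbr1/2iSMCKO library was thus far below the lowest GFPiSMC library, and *Ccn2* fell by 49.7-fold (log2 fold change −5.64, SE 0.52, adjusted p = 0.00226). *Pmepa1*, a membrane protein that restrains SMAD signalling as negative feedback, fell from 307, 363 and 309.8 CPM to 36.9, 36.6 and 35.8 CPM, with nearly equal Tgfbr1/2iSMCKO libraries (log2 fold change −3.16, SE 0.15, adjusted p = 0.000102). *Nox4*, an NADPH oxidase that makes hydrogen peroxide, fell from 715 ± 102 to 159 ± 15 CPM (mean ± SD, n = 3 animals here and below; log2 fold change −2.17, adjusted p = 0.000689), and it was the 1 called gene of 16 NADPH oxidases and antioxidant enzymes.

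Of 18 elastic fiber genes, 6 were lower and 0 were higher, 33.3% of the list against 0.794% of all genes, with a median log2 fold change of −0.54. *Eln* (ENSMUSG00000029675.12; GRCm38 chromosome 5, 134702593 to 134747323), which encodes tropoelastin, the precursor of elastin, was at 1374, 1281 and 1308 CPM in GFPiSMC and 90.0, 97.4 and 68.9 CPM in Tgfbr1/2iSMCKO SMCs. All Tgfbr1/2iSMCKO libraries were under 100 CPM, a fall of 15.5-fold (log2 fold change −3.95, SE 0.18, adjusted p = 9.88e-05). *Mfap4* (ENSMUSG00000042436.12; GRCm38 chromosome 11, 61485431 to 61488900), a microfibril-associated protein that binds tropoelastin and collagen, had the smallest p of all genes tested. It fell from 1049, 1074 and 996 CPM to 79.0, 70.3 and 69.2 CPM (log2 fold change −3.83, SE 0.14, adjusted p = 4.38e-05).

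*Lox*, the lysyl oxidase that cross-links elastin and collagen, fell from 757, 895 and 738 CPM to 99.5, 90.1 and 113 CPM (log2 fold change −2.98, SE 0.16, adjusted p = 0.000178). *Fbln5*, a fibulin needed for elastic fiber assembly, was at 2320.1, 1568 and 1665 CPM in GFPiSMC and 316, 276 and 400.3 CPM in Tgfbr1/2iSMCKO SMCs, with a larger spread than *Eln* in both groups (log2 fold change −2.48, SE 0.21, adjusted p = 0.0014). The other called members were *Fbln1* (−2.47) and *Mfap5* (−1.57). *Mfap5* is also one of the fibroblast markers used below. *Fbn1*, the fibrillin of the microfibril backbone, was at 299.7 ± 34.8 and 211 ± 31.7 CPM, without overlap (log2 fold change −0.51, adjusted p = 0.231), and *Loxl1*, a second cross-linking enzyme, overlapped between genotypes (−0.24, adjusted p = 0.694).

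**Figure D2:**
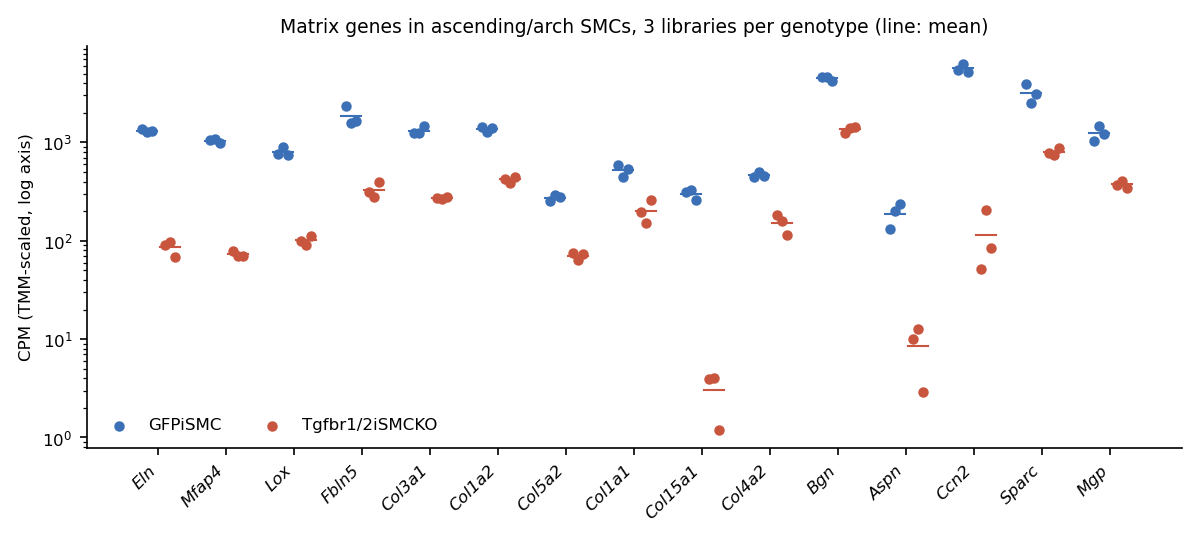
CPM (log axis) of 15 matrix genes in each ascending/arch library, with a line at the mean of the 3 GFPiSMC (blue) and of the 3 Tgfbr1/2iSMCKO libraries (red). The groups do not overlap in any of the 15, and the distance is largest for *Col15a1*, *Ccn2* and *Aspn*.

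Of the 10 fibrillar collagen genes tested, 4 were lower and 0 were higher (median log2 fold change −0.74). *Col3a1* (ENSMUSG00000026043.18; GRCm38 chromosome 1, 45311538 to 45349706), the chain of type III collagen, was at 1243, 1237 and 1457 CPM in GFPiSMC and 269, 266 and 279 CPM in Tgfbr1/2iSMCKO SMCs. The 3 Tgfbr1/2iSMCKO libraries were within a narrow range, and the fall was 4.83-fold (log2 fold change −2.27, SE 0.14, adjusted p = 0.00026). *Col5a2*, a chain of the type V collagen found within type I fibrils, fell by a log2 fold change of 1.95 (adjusted p = 0.000689). The type I collagen chains *Col1a2* and *Col1a1* changed by −1.71 (SE 0.13) and −1.37 (SE 0.22, adjusted p = 0.0266). *Col1a1* was at 589, 445 and 531 CPM and 196, 150.4 and 261 CPM, with the highest of the Tgfbr1/2iSMCKO values in replicate 3, and leaving out any other library gave an adjusted p of 0.065 to 0.126, while without that replicate it was 0.00893.

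Of 23 basement membrane genes, 4 were lower and 0 were higher (median −0.49). *Col15a1* (ENSMUSG00000028339.17; GRCm38 chromosome 4, 47208161 to 47313167), which encodes a collagen at the border of basement membrane and stroma, had the largest fall of the genes in the lists used here, from 310.1, 331 and 257 CPM to 3.96, 4.01 and 1.19 CPM (log2 fold change −6.63, SE 0.47, adjusted p = 0.000592). Its annotated end is 40054 bases before the start of the floxed *Tgfbr1* on the same strand. Of the 98 tested genes that start within 5 Mb of *Tgfbr1*, 6 (6.12%) were called, and of the 80 around *Tgfbr2* 1 (1.25%) was, against 1.21% of all genes tested. This window was chosen after the values were seen, and the part that the position of *Col15a1* has in its level was not tested. The type IV collagen chains *Col4a2*, *Col4a1* and *Col4a5* fell, with log2 fold changes of −1.61, −1.45 and −1.40. *Col4a6* and *Col18a1* had adjusted p values of 0.0179 and 0.00783 but changed by less than 2-fold, at log2 fold changes of −0.93 and −0.99 (−1.01 for *Col18a1*, which was then called, without replicate 3 of Tgfbr1/2iSMCKO). Of 21 other collagen genes, 0 were called, and 7 had an unadjusted p under 0.05, all of them lower (median −0.48). *Col14a1* and *Col6a2* had the smallest p values in that list (−0.97 and −0.69, adjusted p = 0.0892 and 0.17). Over the collagens of the 3 lists, 8 of 39 were lower, and they held 0.696% ± 0.0190 of all counts in GFPiSMC and 0.277% ± 0.0116 in Tgfbr1/2iSMCKO libraries.

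Enzymes that fold and process collagen were called in 2 of 22 cases, both lower (median −0.31), and without replicate 3 of Tgfbr1/2iSMCKO 4 were lower (median −0.64). *Plod2*, a lysyl hydroxylase that prepares collagen for stable cross-links, fell from 198 ± 40.2 to 52.3 ± 6.67 CPM (log2 fold change −1.92, adjusted p = 0.00373), and *P3h2*, a prolyl 3-hydroxylase of basement membrane collagen, changed by −1.69 (adjusted p = 0.016). Of 13 proteoglycans, 4 were lower and 0 were higher (median −0.47). *Aspn*, asporin, a small leucine-rich proteoglycan that binds TGF-β and collagen, was at 133, 199 and 235 CPM and 10.1, 12.8 and 2.87 CPM, with the lowest value in Tgfbr1/2iSMCKO replicate 3 (log2 fold change −4.47, SE 0.53, adjusted p = 0.00745). *Omd*, osteomodulin, a gene next to *Aspn*, changed by −2.35. *Vcan*, the large hyaluronan-binding proteoglycan versican, fell from 135 ± 6.65 to 36.7 ± 2.91 CPM (log2 fold change −1.88). *Bgn*, biglycan, fell from 4674, 4639 and 4199 CPM to 1244, 1385 and 1446 CPM (log2 fold change −1.73, adjusted p = 0.000689).

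Of 24 matricellular genes, 6 were lower and 0 were higher, the list with the lowest median of the matrix lists (−0.77). Beside *Ccn2*, another CCN family member, *Ccn5*, which lacks the C-terminal domain, fell from 106 ± 5.75 to 15.4 ± 6.44 CPM (log2 fold change −2.78, adjusted p = 0.00422). Not every tested member of that family was called. *Sparc*, a collagen-binding glycoprotein, was at 3894, 2502 and 3111 CPM in GFPiSMC and 779, 746 and 885 CPM in Tgfbr1/2iSMCKO SMCs (log2 fold change −1.98, adjusted p = 0.00228). *Mgp*, the matrix Gla protein that inhibits calcification of arteries, changed by −1.72 (adjusted p = 0.00252). *Igfbp7* and *Postn* fell by 1.18 and 1.11 on the log2 scale. *Fn1*, fibronectin, was not called (−1.09, adjusted p = 0.363). It was at 1045, 1236 and 295 CPM in GFPiSMC and 289, 402 and 521 CPM in Tgfbr1/2iSMCKO SMCs, so that GFPiSMC replicate 3 lay within the range of the Tgfbr1/2iSMCKO libraries.

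Over the 6 matrix lists together, 24 of the 109 genes tested were lower and 0 were higher, with a median log2 fold change of −0.53. Another 8 listed genes did not pass the filter on low counts. The 117 listed genes held 4.10%, 4.03% and 3.84% of all counts in the GFPiSMC libraries and 1.58%, 1.64% and 1.65% in the Tgfbr1/2iSMCKO libraries, so that replicate 3 of Tgfbr1/2iSMCKO did not stand apart in this share. Without that replicate 25 of the genes were lower and 0 higher. The lists, like the comparison, were chosen with results of these data known, so their counts are a description.

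Of 37 matrix proteinases and inhibitors, 0 were called, against 1.21% of all genes tested. Their median log2 fold change of 0.05 was close to that of all genes. *Timp2*, an inhibitor of metalloproteinases, was at 467, 449 and 416 CPM and 263, 258 and 203 CPM and had an adjusted p of 0.034 at −0.88 on the log2 scale, under 2-fold. *Adamts15*, a proteinase that cleaves versican, was higher in all 3 Tgfbr1/2iSMCKO libraries but did not pass (1.61, adjusted p = 0.0685). Of 21 integrins, 1 was lower. *Itgb8*, the β8 subunit, whose heterodimer releases TGF-β from its latent complex, was at 35.4, 35.3 and 34.0 CPM in GFPiSMC and 12.0, 14.4 and 10.6 CPM in Tgfbr1/2iSMCKO SMCs (log2 fold change −1.5, SE 0.22, adjusted p = 0.0179). *Itgb5*, a subunit of a vitronectin receptor, was without overlap at −0.84 (adjusted p = 0.112, and 0.0216 at −1.08 without replicate 3 of Tgfbr1/2iSMCKO). Of 31 focal adhesion and linker genes, 0 were called, against the same share of all genes. The smallest p values were those of *Actn1*, which cross-links actin (−0.61, adjusted p = 0.114), and *Nedd9*, a docking protein (−1.45, adjusted p = 0.12).

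**Figure D3:**
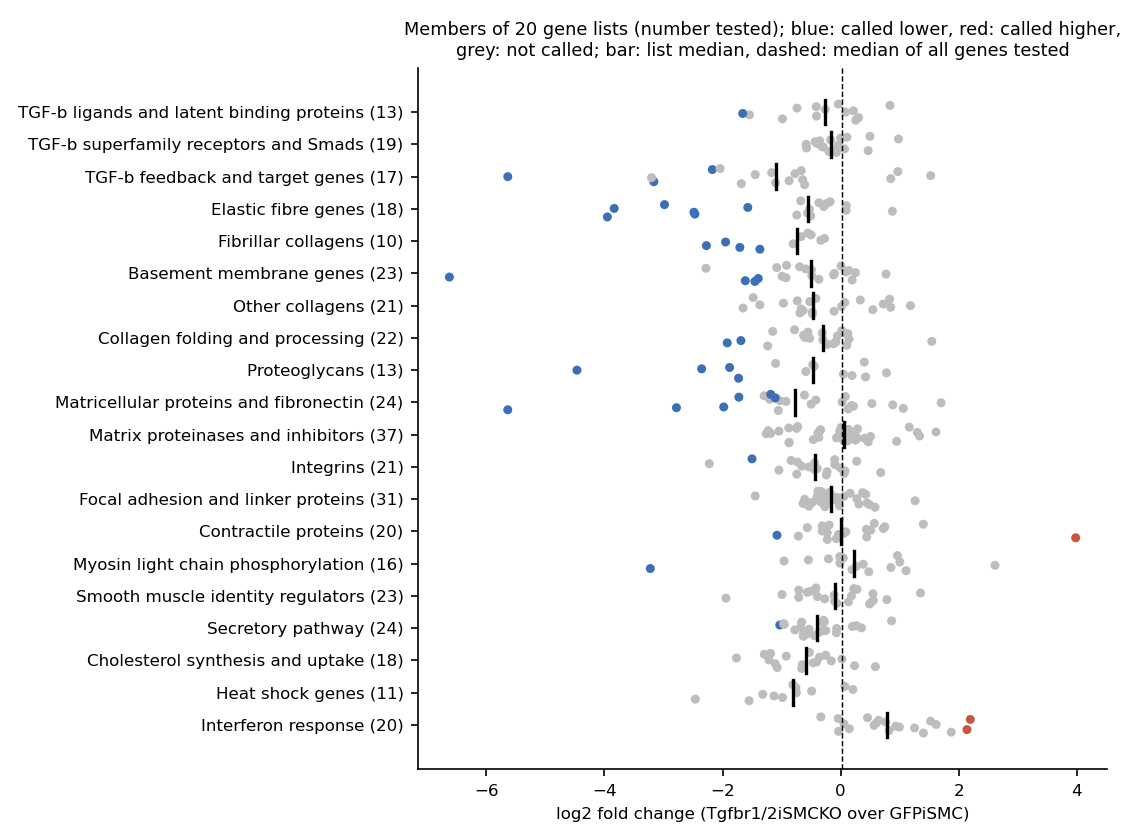
Log2 fold change of every tested member of 20 gene lists in ascending/arch SMCs (number tested in parentheses), with genes called lower in blue, called higher in red and the rest in grey, the list median as a bar and the median of all genes tested as a dashed line. Called members of the 5 matrix lists that have any are all on the lower side, and those of the interferon list are on the higher side.

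Contractile genes did not share a direction. Of 20, 1 was lower, 1 was higher, and the median log2 fold change was 0.01. *Myh11*, the smooth muscle myosin heavy chain, was at 2399, 2307 and 2331 CPM in GFPiSMC and 2894, 2971 and 3683 CPM in Tgfbr1/2iSMCKO SMCs, higher without overlap but past no threshold (0.44, SE 0.14, adjusted p = 0.214). *Acta2*, smooth muscle α-actin, was at 27837, 32098 and 31939 CPM and 27803, 30249 and 20536 CPM, overlapping and lowest in Tgfbr1/2iSMCKO replicate 3 (−0.23, SE 0.17, adjusted p = 0.627). The actin-binding *Tagln* and *Cnn1* also overlapped, at −0.23 (SE 0.15) and 0.09 (SE 0.20). *Smtn*, smoothelin, and *Lmod1*, leiomodin, showed where replicate 3 of Tgfbr1/2iSMCKO differed. *Lmod1* was at 376, 389 and 952 CPM in Tgfbr1/2iSMCKO replicates 1 to 3 against 377, 304 and 342 CPM in GFPiSMC, so its log2 fold change of 0.75 became 0.16 without that library, and that of *Smtn* went from 0.51 to −0.13. All 6 genes are defining markers of SMCs.

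*Myh10*, nonmuscle myosin heavy chain IIB, was the contractile list's lower gene, at 394, 426 and 410.2 CPM in GFPiSMC and 162, 181 and 239.9 CPM in Tgfbr1/2iSMCKO SMCs (log2 fold change −1.08, adjusted p = 0.0267). The higher gene was *Actc1*, cardiac α-actin, at 2.65, 1.25 and 2.85 CPM and 28.0, 69.6 and 9.08 CPM. All Tgfbr1/2iSMCKO libraries were above the GFPiSMC libraries, but they spread widely among themselves (log2 fold change 3.98, SE 0.73, adjusted p = 0.042). The summed level of 10 cardiomyocyte markers was 104 to 107 CPM in GFPiSMC and 93.6 to 161 CPM in Tgfbr1/2iSMCKO libraries, with *Myl7* at 0 in all and *Nppa* and *Mybpc3* under 1 CPM in all. Of the 7 that were tested 0 were called, while 2 had an unadjusted p under 0.05 on the higher and 2 on the lower side. *Tnnt2*, cardiac troponin T, was at 26.9, 16.5 and 23.1 CPM in GFPiSMC and 47.0, 104 and 56.3 CPM in Tgfbr1/2iSMCKO SMCs, highest in replicate 2 as *Actc1* was (1.64, adjusted p = 0.0645). *Ryr2* and *Actn2* were lower in all Tgfbr1/2iSMCKO libraries (−0.73 and −2.10, adjusted p = 0.149 and 0.0897). The part of such cells in the *Actc1* level was not tested.

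Myosin light chain phosphorylation starts SMC contraction. Of 16 genes of this machinery 1 was lower and 0 were higher (median 0.23). *Mylk4* (ENSMUSG00000044951.14; GRCm38 chromosome 13, 32700834 to 32783954), a member of the myosin light chain kinase family, fell from 357, 506 and 366 CPM to 48.2, 35.1 and 48.2 CPM (log2 fold change −3.22, SE 0.22, adjusted p = 0.000419). *Mylk*, the principal kinase of smooth muscle, was at 1720.5, 1748 and 1515 CPM and 2298, 2157 and 2478 CPM. It was higher in every Tgfbr1/2iSMCKO library, with a log2 fold change of 0.48 that passed no threshold (SE 0.13, adjusted p = 0.15). *Rock1*, a kinase that inhibits the myosin phosphatase, was at −0.96 (adjusted p = 0.0765). *Ppp1r12c*, a targeting subunit of that phosphatase, was at 31.2, 33.8 and 9.08 CPM in Tgfbr1/2iSMCKO replicates 1 to 3 against 4.03 ± 1.84 CPM in GFPiSMC SMCs. It was not called with all libraries (2.61, adjusted p = 0.0775) but was called without replicate 3 of Tgfbr1/2iSMCKO (3.0, adjusted p = 0.0213).

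**Figure D4:**
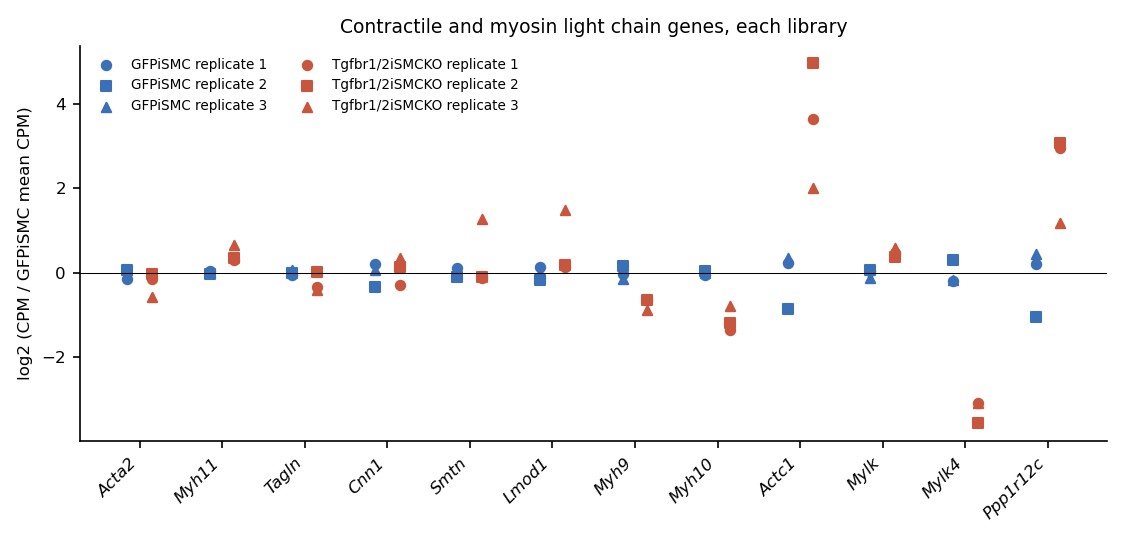
Log2 ratio of each ascending/arch library's CPM to the GFPiSMC mean for 12 contractile and myosin light chain genes, with GFPiSMC in blue, Tgfbr1/2iSMCKO in red and a symbol for each replicate. *Mylk4* and *Myh10* lie below and *Actc1* above in all 3 Tgfbr1/2iSMCKO libraries, and replicate 3 is alone in its *Smtn* and *Lmod1* values.

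Regulators of SMC identity held 0 called genes of 23 (median −0.10). The smallest p values were those of *Klf2*, a shear-responsive transcription factor (−1.94, adjusted p = 0.0683), and *Mef2d*, a partner of myocardin (0.78, adjusted p = 0.361). Outflow tract and regional regulators likewise held 0 of 28, with *Gata4* at 2.61 and *Hand2* at 0.76 (adjusted p = 0.166 and 0.265). *Gata4* was low, with 1.89, 7.88 and 1.29 CPM in Tgfbr1/2iSMCKO and at most 0.766 CPM in GFPiSMC SMCs. Calcium handling (25 genes), vasoconstrictor receptors (19), relaxation and cyclic GMP (16), Notch (15), clock (16), cell cycle (18), immediate early (20), heat shock (11) and cholesterol genes (18) held 0 called genes each. With 1.21% of all genes tested called, 0 in lists of this size is near that share. An unadjusted p under 0.05 was found for 13.3% of all genes tested. In the cholesterol list 10 genes had an unadjusted p under 0.05, all lower (median −0.59), and without replicate 3 of Tgfbr1/2iSMCKO 3 were called lower (median −0.99). Among the 10 was *Msmo1*, an enzyme of sterol synthesis (−0.92, adjusted p = 0.0568). The median of the heat shock genes, which respond to stress of the cells, was −0.81, and 7 of 11 had an unadjusted p under 0.05, all lower, with *Hspa8* at 1582, 1769.8 and 2182 CPM and 636, 1210.5 and 949.7 CPM (−0.98, adjusted p = 0.109). Of the clock genes, *Dbp* and *Nr1d1* were called without replicate 3 of Tgfbr1/2iSMCKO (1.85 and 1.19, adjusted p = 0.015 and 0.015) and not with it (1.57 and 0.99, adjusted p = 0.0863 and 0.0929). Also without that replicate, the identity regulator, Notch, heat shock and cadherin lists had 1 lower gene each.

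The growth factor, Wnt, BMP and Hippo lists held 1 to 3 called genes each, where 1.21% of all genes tested were called. Among 31 growth factors and receptors, 2 were lower and 1 higher. *Igfbp2*, which binds insulin-like growth factors, changed by −2.26, *Hbegf*, a ligand of the EGF receptor, by −1.36, and *Angpt2*, a ligand of the endothelial receptor TIE2, by 1.91 (adjusted p = 0.0175, 0.0266 and 0.0311). *Angpt2* was at 108, 65.3 and 80.3 CPM in GFPiSMC and 239, 233 and 480.1 CPM in Tgfbr1/2iSMCKO SMCs, with replicate 3 the highest. Of 24 Wnt genes, the secreted inhibitor *Wif1* fell (−1.38, adjusted p = 0.00559) and the ligand *Wnt5a* rose from 13.0, 21.6 and 17.2 CPM to 42.8, 41.5 and 44.2 CPM (1.31, adjusted p = 0.0412). In the BMP list of 19 genes, 1 was lower, *Fstl1*, a secreted glycoprotein that binds BMPs, with 3670.1 ± 81.0 and 1611 ± 89.7 CPM (−1.19, adjusted p = 0.00352). Of 12 Hippo and YAP genes 2 were lower, *Ccn2* and *Lats2*, a kinase that inhibits YAP (−1.05, adjusted p = 0.0268).

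Of 10 chemokine and cytokine genes tested, *Ackr3*, a scavenger receptor for CXCL12, fell (−1.98) and *Cx3cl1*, fractalkine, rose from 0.364, 1.32 and 0.537 CPM to 5.46, 5.17 and 7.79 CPM (3.04, adjusted p = 0.0363). Interferon response genes held 0 lower and 2 higher of 20, *Gbp3* (2.19) and *Ifi27l2a* (2.14). Another 7 of them had an unadjusted p under 0.05 on the higher side, the median of the list was 0.79, and without replicate 3 of Tgfbr1/2iSMCKO 1 gene was called. *Kcnk3*, a background potassium channel, was the 1 higher gene of 17 potassium channels (6.98, 10.2 and 5.83 CPM and 20.5, 22.9 and 29.1 CPM, 1.66, adjusted p = 0.039). In the secretory pathway, 1 of 24 genes was lower, *Creb3l2*, a transcription factor of secretory capacity (−1.03), and 12 had an unadjusted p under 0.05 on the lower side (median −0.40), while *Ssr1*, of the translocon, was at 0.86 (adjusted p = 0.0192). *Pycr1*, the last enzyme of proline synthesis, was lower (−1.52, adjusted p = 0.041) as the 1 called gene of 11 for serine, glycine and proline. Without replicate 3 of Tgfbr1/2iSMCKO the adjusted p of *Hbegf*, *Wnt5a*, *Cx3cl1*, *Gbp3* and *Kcnk3* was 0.0503, 0.0717, 0.0735, 0.055 and 0.0731, at log2 fold changes of −1.39, 1.27, 2.82, 1.94 and 1.49. Guidance genes (32) and cadherins (16) held 0 called genes, where 1.21% of all genes tested were called. *Sema3d* was at −0.91 (adjusted p = 0.0354) and the protocadherin *Fat1* at −0.75 (adjusted p = 0.0359).

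Among protein-coding genes that averaged 100 counts or more, the largest falls outside the lists were those of *Nupr1*, *Wdr95* and the zinc finger genes described below. *Nupr1* (ENSMUSG00000030717.9; GRCm38 chromosome 7, 126623249 to 126630861), a stress-responsive nuclear protein, was at 1412, 2091 and 1788 CPM in GFPiSMC and 144, 121 and 93.8 CPM in Tgfbr1/2iSMCKO SMCs. It fell by 14.8-fold without overlap (log2 fold change −3.88, SE 0.23, adjusted p = 0.00025). *Wdr95* was at 24.1, 12.6 and 23.2 CPM and at 0.700, 1.06 and 1.09 CPM (log2 fold change −4.39).

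Within the same limit, the 10 largest rises of protein-coding genes were those of *Actc1*, *Neu2*, *Lifr*, *Eef2k*, *Cbs*, *Adhfe1*, *Camsap2*, *Elmo1*, *Nudcd3* and *Cacnb4*. *Elmo1* (ENSMUSG00000041112.16; GRCm38 chromosome 13, 20090596 to 20608353), which activates Rac together with DOCK proteins, was at 7.67, 6.86 and 5.70 CPM in GFPiSMC and 41.1, 44.4 and 48.6 CPM in Tgfbr1/2iSMCKO SMCs. It rose by 6.62-fold (log2 fold change 2.73, SE 0.23, adjusted p = 0.00121), alone among 12 Rac activators, of which *Dock10* was at −1.42 (adjusted p = 0.0786). *Lifr*, the receptor of leukemia inhibitory factor, rose from 23.6, 11.4 and 11.6 CPM to 113, 99.6 and 191 CPM (log2 fold change 3.12, adjusted p = 0.00783). *Adhfe1*, a mitochondrial oxidoreductase, had nearly equal Tgfbr1/2iSMCKO libraries, at 44.1, 42.3 and 42.3 CPM against 5.89, 4.25 and 8.35 CPM (log2 fold change 2.80, adjusted p = 0.00379). *Eef2k*, the kinase that slows translation elongation, and *Camsap2*, a protein of microtubule minus ends, rose by 3.0 and 2.75 on the log2 scale. *Cbs*, cystathionine β-synthase, changed by 2.81 and, without replicate 3 of Tgfbr1/2iSMCKO, by 2.06, since that library was at 25.5 CPM and the other 2 at 9.0 and 7.97 CPM. The sialidase *Neu2* and the calcium channel subunit *Cacnb4* rose with all libraries (adjusted p = 0.0392 and 0.0329) but had adjusted p values of 0.0793 and 0.0517 without that replicate. *Tcap*, a cap protein of the striated muscle sarcomere, had the smallest p of the protein-coding genes that rose, from 64.3, 46.2 and 50.4 CPM to 234, 259.9 and 254 CPM (log2 fold change 2.22, SE 0.17, adjusted p = 0.00087).

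The proximal promoters were searched for binding motifs. RefSeq windows of 250 bases before the start (GRCm38.p6) matched 12807 of the genes tested and 155 of the 239 called genes, with the first listed window taken for each gene. The window of *Col3a1* is printed as one of the 4 matrix and contractile genes with the smallest p, of which *Eln*, *Mfap4* and *Lox* are named only. Those of *Nupr1*, *Mylk4*, *Elmo1* and *Actc1* were chosen after their values were seen, as strong falls outside the matrix lists and strong rises. Capitals mark matches on either strand to CAGACA, which holds a SMAD binding element, to GGAATG, a TEAD motif, to TGACTCA, an AP-1 motif, to GGGGCGGGG, an Sp1 motif, or to the CArG box of serum response factor.
Col3a1, chr1:45311288-45311537, plus strand: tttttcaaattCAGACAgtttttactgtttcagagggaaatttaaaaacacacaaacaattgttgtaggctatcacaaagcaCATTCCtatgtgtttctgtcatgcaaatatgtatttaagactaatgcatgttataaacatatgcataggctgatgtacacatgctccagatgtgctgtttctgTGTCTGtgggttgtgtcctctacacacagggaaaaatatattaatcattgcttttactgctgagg
Nupr1, chr7:126625471-126625720, minus strand: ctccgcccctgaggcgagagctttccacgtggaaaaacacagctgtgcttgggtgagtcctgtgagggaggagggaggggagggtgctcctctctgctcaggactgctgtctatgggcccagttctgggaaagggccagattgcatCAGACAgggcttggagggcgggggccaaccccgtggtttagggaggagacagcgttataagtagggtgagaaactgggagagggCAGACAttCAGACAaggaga
Mylk4, chr13:32783965-32784214, minus strand: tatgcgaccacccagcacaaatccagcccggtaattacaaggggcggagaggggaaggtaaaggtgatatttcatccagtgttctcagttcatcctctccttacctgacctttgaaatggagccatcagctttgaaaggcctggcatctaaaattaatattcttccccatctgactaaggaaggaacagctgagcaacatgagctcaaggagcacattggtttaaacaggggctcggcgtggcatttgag
Elmo1, chr13:20090257-20090506, plus strand: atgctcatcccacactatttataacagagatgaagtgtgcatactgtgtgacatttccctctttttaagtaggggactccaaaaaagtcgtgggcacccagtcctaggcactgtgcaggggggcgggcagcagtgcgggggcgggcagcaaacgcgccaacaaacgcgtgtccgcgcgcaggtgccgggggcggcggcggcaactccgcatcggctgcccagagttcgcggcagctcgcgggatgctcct
Actc1, chr2:114052876-114053125, minus strand: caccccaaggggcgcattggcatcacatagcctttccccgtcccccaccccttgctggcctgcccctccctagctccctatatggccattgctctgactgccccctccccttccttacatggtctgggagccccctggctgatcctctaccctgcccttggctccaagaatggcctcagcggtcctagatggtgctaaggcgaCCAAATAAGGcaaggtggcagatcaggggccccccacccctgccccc

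The *Col3a1* window holds CAGACA at 239 and 65 bases and GGAATG at 168 bases before the start, the *Nupr1* window holds CAGACA at 104, 20 and 12 bases, and the *Actc1* window holds a CArG box at 47 bases. The window of *Mylk4*, that of *Col15a1*, which is not printed here, and the 2 windows of *Elmo1* hold none of these motifs. Among called lower genes 16.2% of 105 windows held CAGACA and 15.2% held GGAATG, among called higher genes 24.0% and 14.0% of 50 did, and among all tested genes 14.1% and 11.0% of 12807. TGACTCA, which reads TGAGTCA on the other strand, was in 1.90%, 4.00% and 3.17%, GGGGCGGGG in 15.2%, 18% and 17.8%, and the CArG box in 0%, 4.00% and 1.19%. These shares are descriptions, and a match is not a bound site.

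Some called genes were nearly absent in a genotype. On chromosome 2, between 176798612 and 178034022, 11 of 13 tested genes were called lower, 10 of them annotated as protein-coding. Over all genes tested, 0.794% were called lower. The locus was chosen after the values were seen, and its ends are those of its first and last called genes. The share called within it is therefore partly set by that choice. The tested genes not called there also had lower counts in every Tgfbr1/2iSMCKO library than in any GFPiSMC library. *Gm14325* had 302, 385 and 245 counts in GFPiSMC and 0 in every Tgfbr1/2iSMCKO library, at least 99.6-fold lower against a floor of 3 counts per library, and *Gm14326* had 238, 289 and 151 counts and 0, at least 72.0-fold lower. *Zfp971* had 202, 221 and 180 counts in GFPiSMC and 8, 0 and 0 counts in Tgfbr1/2iSMCKO SMCs. Zinc finger genes of this cluster are near-identical in sequence, so the split of reads between them is uncertain. In all, 10 called genes had 0 counts in all 3 Tgfbr1/2iSMCKO libraries and 6 in all 3 GFPiSMC libraries, and in the 12 libraries of both segments 6 and 1 of the called genes had 0 counts in a whole genotype. Pseudogenes made up 14 of the 239 called genes, 5 lower and 9 higher.

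Another 28 called genes are annotated as noncoding RNA or as yet unclassified. Of the called noncoding genes and pseudogenes, 4 overlap a called protein-coding gene on the opposite strand and changed in the same direction, *Gm15270* with *Ccn2* (−4.11 and −5.64), *Gm4524* with *P3h2* (−1.92 and −1.69), *Gm26776* with *Ccdc3* (−1.35 and −1.28) and *Gm13008* with *Eloa* (1.89 and 1.42). No strand setting of the counting is given in the sources used here, so reads of the overlapping genes cannot be told apart. Without replicate 3 of Tgfbr1/2iSMCKO the adjusted p of *Gm26776*, *Ccdc3* and *Gm4524* was 0.0532, 0.055 and 0.0509.

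The labelled cell type was checked on its markers. The summed level of 8 SMC markers was 39515 to 43547 CPM in GFPiSMC and 33915 to 42610 CPM in Tgfbr1/2iSMCKO libraries, and 0 of the 8 were called. Of 12 fibroblast markers, summing to 1396 to 1678 and 917 to 1713 CPM, 11 were tested and 1 was called, *Mfap5*, while 2 had an unadjusted p under 0.05 on the higher and 2 on the lower side. *Mfap5* and *Gsn* made up most of the sum, *Mfap5* at 1205, 1041 and 1228 CPM in GFPiSMC and 467, 367 and 334 CPM in Tgfbr1/2iSMCKO libraries and *Gsn* at 353, 206 and 284 CPM and 335, 373 and 1291 CPM, with replicate 3 of Tgfbr1/2iSMCKO far above the rest. Among the other fibroblast markers, *Dpt* was at 0.327, 1.01 and 1.03 CPM and 4.55, 2.46 and 2.06 CPM (1.93, adjusted p = 0.18), *Cd34* at 6.15, 10.9 and 9.75 CPM and 18.1, 11.6 and 11.9 CPM (0.64, adjusted p = 0.443) and *Pdgfra* at 15.6, 15.9 and 11.9 CPM and 22.1, 15.8 and 18.4 CPM. *Serpinf1* went the other way, at 16.1, 14.3 and 15.1 CPM and 8.86, 5.46 and 4.86 CPM. *Pi16* leaned lower with overlap, at 2.40, 1.46 and 2.52 CPM and 1.93, 0.387 and 0.515 CPM. *Lum* and *Dcn* overlapped between genotypes and were lowest in replicate 3 of Tgfbr1/2iSMCKO, at 19.6 and 27.6 CPM. The part of such cells in the results was not tested. The 10 endothelial markers summed to 95.5 to 134 and 84.4 to 129 CPM, most of it from *Pecam1* and *Eng*. Of these 10, 0 were called and 1 had an unadjusted p under 0.05, on the higher side. *Cdh5* was low but without overlap, at 0.509, 0.139 and 0.124 CPM and 2.77, 1.45 and 0.709 CPM. The 10 macrophage markers summed to 14.2 to 19.9 and 16.4 to 26.1 CPM, with *Adgre1*, *C1qa*, *Mrc1* and *Tyrobp* under 1 CPM in all libraries. Lymphocyte markers summed to at most 2.96 CPM, Schwann cell markers to at most 5.47 CPM, mesothelial markers to at most 5.71 CPM and red blood cell markers to at most 19.5 CPM. Of 7 adipocyte markers, *Cidea* alone carried the sum and rose (1.82, adjusted p = 0.00488), while *Adipoq*, *Plin1*, *Cidec*, *Ucp1*, *Lep* and *Pck1* were under 1 CPM in all libraries. *Ighm*, an immunoglobulin heavy chain gene, was at 3.20, 5.40 and 1.49 CPM and 22.6, 37.0 and 14.3 CPM (2.87, adjusted p = 0.0434), with the B cell marker *Cd79a* under 1 CPM in all libraries.

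Whether the genotype effect differed from that in the descending thoracic aorta was tested as the interaction of genotype and segment over all 12 libraries. Of 22320 genes, 0 (0%) had an adjusted p under 0.05 by edgeR, with 659 (2.95%) at an unadjusted p under 0.05, and 11 passed by DESeq2. Libraries of both segments that share a number may come from the same animal, which this test does not take into account. In descending SMCs the median log2 fold change of the 157 lower genes was −1.70, and 152 were lower in sign and 117 called, while that of the 82 higher genes was 1.27, with 76 higher in sign and 40 called there. The genes were chosen on the ascending/arch libraries, so their values in that segment carry the selection. An unadjusted p under 0.05 for the difference held for 17 of the 157 lower genes and for 21 of the 82 higher ones, against 2.76% of the genes tested in both fits.

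Estimates of the difference between segments are given here for some matrix genes, and none passed adjustment. The difference (ascending/arch minus descending) was 0.33 (SE 0.30) for *Eln*, 0.09 (SE 0.16) for *Col3a1*, 0.20 (SE 0.82) for *Ccn2* and −0.44 (SE 0.19, unadjusted p = 0.0371) for *Lox*. It was −1.15 (SE 0.52, unadjusted p = 0.0461) for *Omd*, −0.69 (SE 0.26, unadjusted p = 0.0193) for *Mfap5* and −0.62 (SE 0.65, unadjusted p = 0.354) for *Col4a1*. Of the 109 matrix genes, 9 had an unadjusted p under 0.05 for it, against 2.76% of the genes tested in both fits. The called genes with the smallest p for the difference were *Zfp28*, *Kcnip4* and *Pcdhga11*. *Zfp28*, a zinc finger protein, had log2 fold changes of 3.19 and −0.60 (unadjusted p = 0.00116). *Kcnip4*, a potassium channel–interacting protein, was at 45.2, 44.5 and 43.2 CPM and 22.7, 19.3 and 16.8 CPM in the ascending/arch (log2 fold change −1.18) and had a log2 fold change of 0.03 in the descending aorta (unadjusted p = 0.00118 for the difference, adjusted p = 1 by edgeR). *Itgb8* showed −1.5 and 0.01 in the same order (unadjusted p = 0.005), and among the largest rises *Camsap2* showed 2.75 and −0.72, *Nudcd3* 2.55 and 0.06, and *Eef2k* 3.0 and −0.07 (unadjusted p = 0.00413, 0.00391 and 0.041). None of these differences passed adjustment over all genes.

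**Figure D5:**
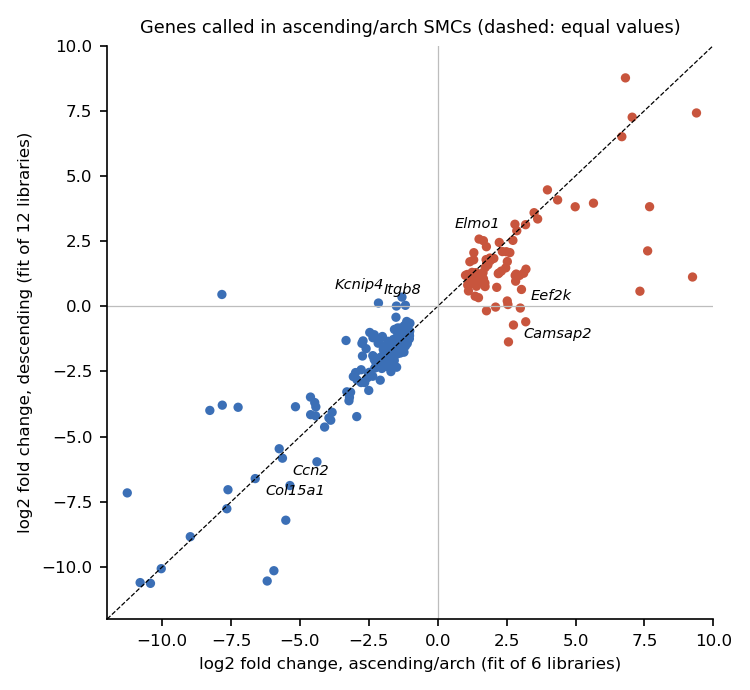
Log2 fold change between genotypes in descending SMCs (fit of 12 libraries) against that in ascending/arch SMCs (fit of 6 libraries) for the 239 genes called in the ascending/arch, lower genes in blue and higher genes in red, with equal values on the dashed line. The sign is the same in both segments for 152 lower and 76 higher genes, and *Camsap2*, *Eef2k*, *Itgb8* and *Kcnip4* lie near or across 0 in the descending aorta.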

How the data were processed

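Sorted GFP+ aortic SMCs were sequenced after preparation with a kit for low input. The authors trimmed reads with Trim Galore 0.5.0, aligned them with HISAT2 2.1.0 and deposited gene counts assembled with StringTie 1.3.3b and GENCODE M15 on GRCm38. StringTie derives counts from coverage, so a count is not a direct tally of reads. The table holds 52636 genes, of which 49121 have the same versioned identifier in the GENCODE M21 annotation used for symbols and positions.

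The 6 ascending/arch libraries were fitted alone with edgeR 4.0.16 (R 4.3.3), by filterByExpr, TMM factors and the quasi-likelihood test with Benjamini-Hochberg adjustment. The SE of a log2 fold change is its size divided by the square root of F. The interaction with segment used all 12 libraries and the same steps. CPM are scaled by TMM. p-values rest on the spread between the 3 mice within each group, pooled over both groups and moderated by the spread of other genes. An exact permutation test of 3 against 3 could not go below 0.1. In tests on simulated data for this comparison, edgeR recovered 51 of 100 genes changed by 1.5 on the log2 scale and 93 of 100 changed by 3, with 10 of 154 calls false over 18682 genes. The simulated counts took their spread from edgeR's trend over expression level, without a spread particular to each gene and without an outlying library.

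Members and gene lists were chosen with earlier results of these data known. Genes were named as up to 4 called members of each list with the largest change, the 2 members with the smallest p where fewer than 2 were called, the 10 largest falls and rises among called protein-coding genes averaging 100 counts or more, and the 3 called genes with the smallest p for the segment difference. Tgfbr1 and Tgfbr2 were named in advance. Chosen after their values were seen were Acta2, Actn2, Ccdc3, Cd34, Cdh5, Cidea, Cnn1, Col18a1, Col4a6, Dcn, Dpt, Eloa, Eng, Fbln1, Fbn1, Fn1, Gm13008, Gm15270, Gm26776, Gm4524, Gsn, Igfbp7, Ighm, Lmod1, Loxl1, Lum, Mfap5, Myh11, Mylk, Pdgfra, Pecam1, Pi16, Postn, Ppp1r12c, Ryr2, Serpinf1, Smtn, Tagln, Tcap and Tnnt2. DESeq2 1.42.0 and limma 3.58.1 were alternatives. Some listed genes are not reported here.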

Additional observations from a re-analysis of the deposited data

How the results depend on the processing

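Of 157 lower and 82 higher genes, DESeq2 gave 353 and 349, a test against a 2-fold change 39 and 14, and a fit of every gene with a count 207 and 128. On the simulated data, 48 of 202 calls by DESeq2 were false, against 10 of 154 by edgeR. Those data had the spread of edgeR's own trend and no outlying library, so these shares need not hold for the calls made here. Leaving out a library gave 60 to 152 lower and 24 to 75 higher genes, where 5 of the 6 omissions gave at most 86 and 38 and the omission of Tgfbr1/2iSMCKO replicate 3 gave 152 and 75. The matrix genes called lower numbered 24, 15 in the test against a 2-fold change, 23 with the replicate block and 19 to 25 with a library left out. The calls of Itgb8, Myh10, Actc1, Igfbp2, Hbegf, Angpt2, Creb3l2 and Pycr1 were each lost in at least 1 of the 6 omissions. So were those of Ackr3, Cx3cl1, Gbp3, Ifi27l2a and Kcnk3. A difference between segments was found for 11 genes by DESeq2. It was found for 0 to 3 where the libraries of both segments with the same genotype and number were left out, the 3 without GFPiSMC replicate 3. The replicate block gave 77 lower and 27 higher genes. The shared replicate numbers had correlations of deviations of −0.185, 0.203 and 0.0275 over 9187 genes. Not every library correlated best with its own number, though the libraries numbered 2 did. With 3 libraries a group this check cannot tell whether libraries of a number shared a batch, and the main fit assumed no pairing.

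The log2 fold change of Tgfbr1 was 0.021 with library size only and ranged from −0.23 to 0.061 with a library left out, and that of Cnn1 ranged from −0.068 (without Tgfbr1/2iSMCKO replicate 3) to 0.25 and that of Smtn from −0.13 (without the same library) to 0.76. No other named gene changed sign under these alternatives. The cause of these changes was not tested. With 3 mice a group, a change of 1.5 on the log2 scale was recovered in 51% of cases on simulated data, so smaller changes may have been missed.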

Other observations

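The cell cycle inhibitors *Cdkn2b* and *Cdkn1a* did not overlap between genotypes in ascending/arch SMCs but were not called. *Cdkn2b*, which encodes the inhibitor p15 and is a known target of TGF-β, was at 17.4, 18.1 and 15.8 CPM in GFPiSMC and 7.39, 5.51 and 9.92 CPM in Tgfbr1/2iSMCKO SMCs, without overlap (log2 fold change −1.17, SE 0.29, adjusted p = 0.112 by edgeR). *Cdkn1a*, which encodes p21, was at 105, 120.3 and 149 CPM and 71.0, 62.8 and 85.5 CPM (−0.77, adjusted p = 0.12), and at −1.75 in the descending aorta (unadjusted p = 0.00322 for the difference). *Sod3*, the extracellular superoxide dismutase, was at 3093 ± 585 and 1654 ± 501 CPM (−0.90, adjusted p = 0.13, and −1.19 at 0.0223 without replicate 3 of Tgfbr1/2iSMCKO).

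Among receptors for vasoconstrictors, *Adra1b*, an α1-adrenergic receptor, was at 1.42, 2.30 and 1.45 CPM in GFPiSMC and 4.59, 5.22 and 4.77 CPM in Tgfbr1/2iSMCKO SMCs. The groups did not overlap, and the log2 fold change of 1.49 had an adjusted p of 0.106. *Agtr1b*, an angiotensin II receptor, was near the detection limit, at 0.145, 0.209 and 0 CPM and 1.19, 1.16 and 2.29 CPM (adjusted p = 0.0929).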
